A study of Mus musculus with 4 samples.

Results

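The class II and class IV histone deacetylases of the mouse, Hdac4, Hdac5, Hdac6, Hdac7, Hdac9, Hdac10 and Hdac11, were followed across 4 stages of a hepatocyte culture that is driven toward insulin-producing cells. They were taken by gene name from the deposited read count table, where they are 7 of 30138 entries. All 7 passed the limit for a gene to be tested, a level of 1 CPM (reads of the gene relative to the size of its library) in at least 1 library, and all 7 passed it in S0 and in S1. Class IIa (Hdac4, Hdac5, Hdac7 and Hdac9) held 4 of them, class IIb (Hdac6 and Hdac10) 2 and class IV (Hdac11) 1.

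Total RNA of cultured primary mouse hepatocytes was sequenced at each stage as 1 library. S0 was the starting culture in medium free of fetal bovine serum, with knockout serum, B-27 and N-2 supplements, basic fibroblast growth factor (bFGF) and epidermal growth factor (EGF), both at 20 ng/ml. S1 had received 5-azacytidine, an inhibitor of DNA methylation, over 48 h (5 mM per the labels), and then trichostatin A, an inhibitor of histone deacetylases, at 100 nM for 24 h. S2 had in addition received insulin, transferrin and selenium supplement (ITS) with retinoic acid for 7 days (2 mM per the labels). S3 had then spent 7 days in medium lacking bFGF and EGF, with 10 mM nicotinamide. The millimolar doses of 5-azacytidine and retinoic acid stand as the labels print them. Neither the strain, age or sex of the mice nor the number of cultures behind a library is stated in the labels.

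Zinc-dependent histone deacetylases remove acetyl groups from lysines of histones and other proteins. Class IIa enzymes have little deacetylase activity of their own in vertebrates. They bind MEF2 transcription factors and recruit the NCoR/SMRT corepressor complex with Hdac3, and kinases such as CaMK, protein kinase D, SIK and AMPK phosphorylate them so that 14-3-3 proteins hold them in the cytoplasm. In the liver, fasting signals are known to bring class IIa enzymes into the nucleus, where FOXO factors act on gluconeogenic genes. The class IIb enzyme Hdac6 acts mainly on alpha-tubulin and Hsp90 in the cytoplasm, and Hdac10 deacetylates acetylated spermidine, a polyamine. Hdac11 is the single class IV enzyme and removes long fatty acyl groups from lysines. Trichostatin A, given before S1, blocks class I and class IIb enzymes and acts weakly on class IIa.

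The hepatocyte label was checked against 13 listed markers. Of these 9 were measured, while Cyp2e1 and Asgr1 stayed below 1 CPM at every stage, Tat had 0 reads and Tf was found under no entry of that name. Their summed level was 3632, 3513, 12098 and 6364 CPM in S0 to S3. Of this sum, Apob held 3151, 1439, 3690 and 2355 CPM and Alb 234, 1724, 7171 and 3569 CPM. In S1 over S0, 4 of the 9 were called higher and 2 lower, against 12.6% and 13.1% of all genes tested. In S2 over S1, 6 were higher and 0 lower, against 6.71% and 10.1%. In S3 over S2, 0 were higher and 5 lower, against 3.69% and 1.14%. The cultures also held transcripts of other cells. The summed level of 20 macrophage markers, all measured, was 14933, 3462, 775 and 768 CPM in S0 to S3. The corresponding sums were 7208, 1506, 1431 and 2110 CPM for 9 stellate and smooth muscle markers and 1567, 1566, 581 and 595 CPM for 5 biliary markers. They were 17.5, 258, 23.9 and 31.9 CPM for 12 neural markers (10 measured), 37.4, 17.3, 6.15 and 7.0 CPM for 11 endothelial markers (8 measured), and 1351, 139, 58.5 and 293 CPM for 9 cell cycle genes. Of these sums, Lyz2 alone held 8936, 2429, 545 and 520 CPM (macrophage) and Spp1 1117, 1276, 403 and 282 CPM (biliary) in S0 to S3. Reads in genes ranged from 22944047 in S2 to 27602967 in S0. With 1 library per stage, a difference between stages cannot be told apart from a difference between cultures or libraries, and the intervals given cover counting error only. In bulk RNA, fewer cells of a type and less RNA per cell cannot be told apart either.

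Values across stages are CPM scaled with TMM factors, and each ratio carries an exact 95% Clopper-Pearson interval in parentheses. To be called higher or lower, a gene needed an interval entirely past 2-fold. In S1 over S0, 1 of the 7 genes was called higher (Hdac11) and 2 lower (Hdac7 and Hdac9), against 12.6% higher and 13.1% lower among all 15222 genes tested. In S2 over S1, 1 was higher (Hdac7) and 0 lower, against 6.71% and 10.1%. The split of all genes in S2 over S1, 39.8% higher among those called, was 27.1% without TMM factors. In S3 over S2 none of the 7 was called, against 3.69% higher and 1.14% lower among all genes. In S3 over S0, 1 was higher (Hdac11) and 1 lower (Hdac9), against 9.2% and 10.5%. The median log2 ratio of the 7 genes in these comparisons was -0.33, -0.01, 0.03 and -0.22, and that of all genes -0.03, 0.01, 0.01 and 0.05. The comparisons share libraries, so they are not independent of each other.

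**Figure D1:**
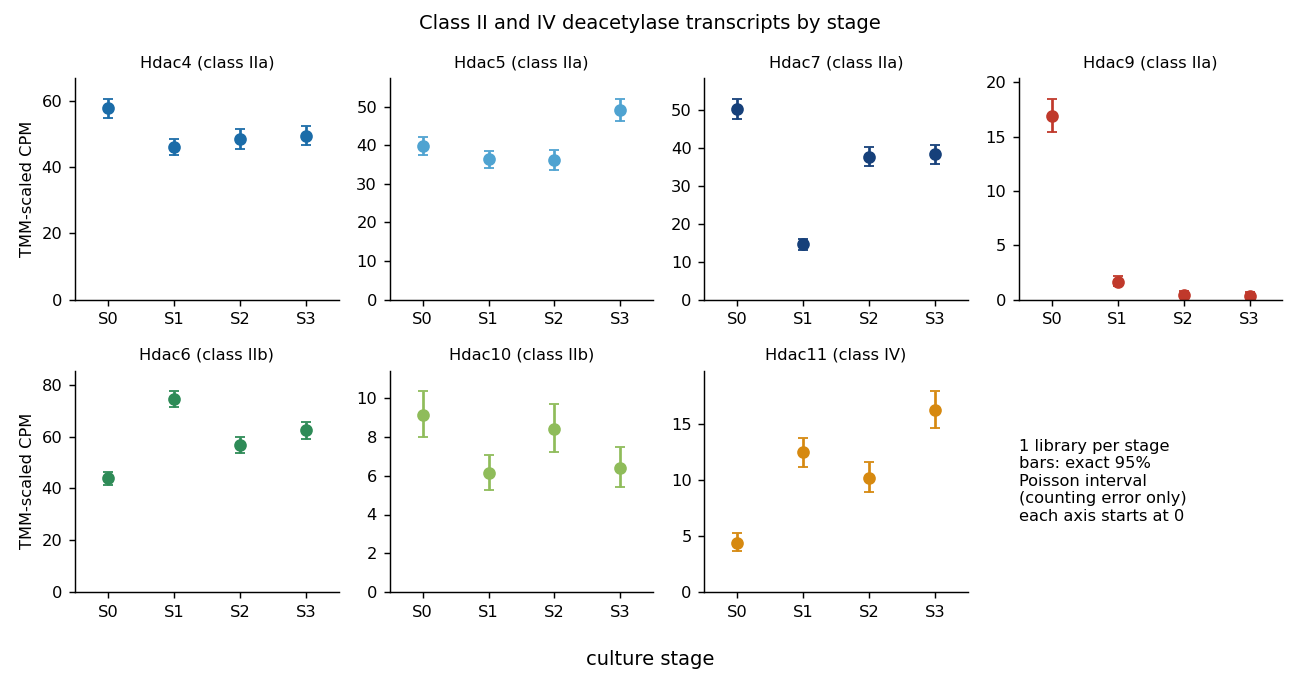
TMM-scaled CPM (vertical axis, from 0, with its own range in each panel) of the 7 genes at stages S0 to S3 (horizontal axis), where each point is 1 library and each bar an exact 95% Poisson interval for counting error only. Hdac9 is highest in S0, Hdac7 lowest in S1 and Hdac11 lowest in S0.

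Hdac9, a class IIa gene that also gives rise to a short form without the catalytic domain, was the member that differed most between stages. It was covered by 451, 48, 10 and 8 reads in S0 to S3, or 16.9, 1.65, 0.455 and 0.342 CPM. S0 stood alone at the top, S1 lay above S2 and S3, and the Poisson intervals of S2 (0.218 to 0.837 CPM) and S3 (0.147 to 0.673 CPM) overlapped. Hdac9 was 10.2-fold lower in S1 than in S0 (7.57 to 14.1) and 49.4-fold lower in S3 than in S0 (24.9 to 115). On the log2 scale these ratios were -3.35 and -5.63, and -2.54 and -3.5 on the log2(RPKM + 0.1) scale of the deposited RPKM, a pseudocount that understates the change of low genes. In S2 over S1 it was 3.63-fold lower, but the interval (1.81 to 8.05) reached inside 2-fold and the gene was not called. Without TMM factors that interval lay wholly beyond 2-fold and Hdac9 was called lower there. The highest of its 4 levels was 49.4 times the lowest, a wider span than that of 98.5% of all genes tested, whose median was 2.1.

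RefSeq promoter windows (250 bases before to 50 after an annotated start, build GRCm38.p6) were found for 6 of the 7 genes, 10 windows in all. They are shown for the 3 genes that were called in at least 1 comparison, since the step before S1 included an inhibitor of CG methylation. Capitals mark CG dinucleotides, and methylation itself was not measured. Both Hdac9 windows held fewer CG than each of the 8 others.
Hdac9, chr12:34917046-34917345, minus strand: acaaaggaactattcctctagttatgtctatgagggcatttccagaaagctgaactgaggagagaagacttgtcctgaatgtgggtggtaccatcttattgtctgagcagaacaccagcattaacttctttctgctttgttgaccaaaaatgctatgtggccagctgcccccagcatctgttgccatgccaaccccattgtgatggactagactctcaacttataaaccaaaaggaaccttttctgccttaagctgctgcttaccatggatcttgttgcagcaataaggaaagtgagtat
Hdac9, chr12:34528840-34529139, minus strand: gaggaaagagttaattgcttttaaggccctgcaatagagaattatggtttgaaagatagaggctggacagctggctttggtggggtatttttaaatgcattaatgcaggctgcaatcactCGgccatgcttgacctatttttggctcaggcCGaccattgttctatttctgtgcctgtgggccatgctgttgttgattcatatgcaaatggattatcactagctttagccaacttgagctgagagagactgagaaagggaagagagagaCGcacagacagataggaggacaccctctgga
Hdac7, chr15:97831446-97831745, minus strand: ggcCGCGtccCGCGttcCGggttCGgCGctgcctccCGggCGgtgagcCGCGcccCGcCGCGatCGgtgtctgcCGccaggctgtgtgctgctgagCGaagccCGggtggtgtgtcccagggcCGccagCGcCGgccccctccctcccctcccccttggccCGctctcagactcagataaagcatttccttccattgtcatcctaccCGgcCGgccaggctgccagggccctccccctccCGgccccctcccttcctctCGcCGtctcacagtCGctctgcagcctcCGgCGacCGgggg
Hdac11, chr6:91156565-91156864, plus strand: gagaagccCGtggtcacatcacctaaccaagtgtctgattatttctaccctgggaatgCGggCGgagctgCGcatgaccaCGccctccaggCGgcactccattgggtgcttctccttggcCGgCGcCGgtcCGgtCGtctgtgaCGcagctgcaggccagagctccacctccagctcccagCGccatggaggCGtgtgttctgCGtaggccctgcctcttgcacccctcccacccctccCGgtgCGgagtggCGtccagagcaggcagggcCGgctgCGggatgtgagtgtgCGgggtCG
The Hdac9 windows held 0 and 3 CG, where the median of all 32851 windows in the table was 7. A window with 0 CG was found in 5.43% of the table, and 23.3% of windows held fewer than 3. The Hdac11 window held 22 CG (76.9% of windows held fewer). The 4 Hdac7 windows held 31, 6, 35 and 5, and the one printed was the window with 31. The single windows of Hdac4, Hdac5 and Hdac6 held 32, 18 and 20.

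Most macrophage markers were lower in the same stages as Hdac9. Of the 20 markers, 16 were called lower and 2 higher in S1 over S0, with a median 5.8-fold lower. In S2 over S1, 15 were lower and 1 higher, with a median 4.3-fold lower, and in S3 over S0, 19 were lower and 0 higher, with a median 35.3-fold lower. In S1 over S0, S2 over S1 and S3 over S0, 13.1%, 10.1% and 10.5% of all genes were lower and 12.6%, 6.71% and 9.2% higher. The colony-stimulating factor receptor gene Csf1r, which macrophages need to survive, stood at 838, 43.5, 24.1 and 22.1 CPM in S0 to S3, and Adgre1, which encodes the F4/80 antigen, at 373, 139, 8.47 and 10.9 CPM. Of the liver macrophage (Kupffer cell) markers, Timd4 had 54, 8, 0 and 0 reads in S0 to S3, and Clec4f had 119, 59, 1 and 1. Timd4 reached 1 CPM in S0 alone, so against S0 it could only be lower. The 2 markers called higher in S1 over S0, where Hdac9 was lower, were the scavenger receptor gene Marco, with 1964 reads in S0 and 4919 in S1 (2.3-fold, 2.19 to 2.43), and Cd5l, with 285 and 982 (3.17-fold, 2.78 to 3.63). Stellate and smooth muscle markers also moved with Hdac9 in part, with 5 of 9 lower and 2 higher in S1 over S0. The counts were the same in S2 over S1, and 4 lower and 3 higher in S3 over S0. The 2 higher were Rgs5 and Lrat in S1 over S0, and Dcn and Pdgfrb in S2 over S1. In S3 over S2, 5 were higher and 0 lower, against 3.69% and 1.14% of all genes. Hdac9 was not called there (1.33-fold lower, 0.474 to 3.89). Among the 9 markers, Rgs5 reached 1 CPM in S1 alone, so the limit for testing fixed its direction in S1 over S0 and S2 over S1. The smooth muscle actin gene Acta2 stood at 3895, 534, 212 and 340 CPM and the smooth muscle myosin gene Myh11 at 278, 23.4, 6.74 and 22.2 CPM. Of the 9 cell cycle genes, 9 were lower in S1 over S0, 6 in S2 over S1 and 9 in S3 over S0. In those comparisons 0 were higher. In S3 over S2, 8 were higher and 0 lower. The part of these cells and of the cell cycle genes in the Hdac9 values was not tested. Among protein-coding genes, the 5 with the pattern most like Hdac9 over the 4 libraries were Adam8, Plxnc1, Ms4a6d, Osm and Tlr2. Likeness was the root mean square difference of centred log2 profiles, from 0.042 for Adam8 to 0.076 for Tlr2, and 40 genes lay within 0.25. With 4 libraries many genes share a pattern, and this is a description.

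**Figure D2:**
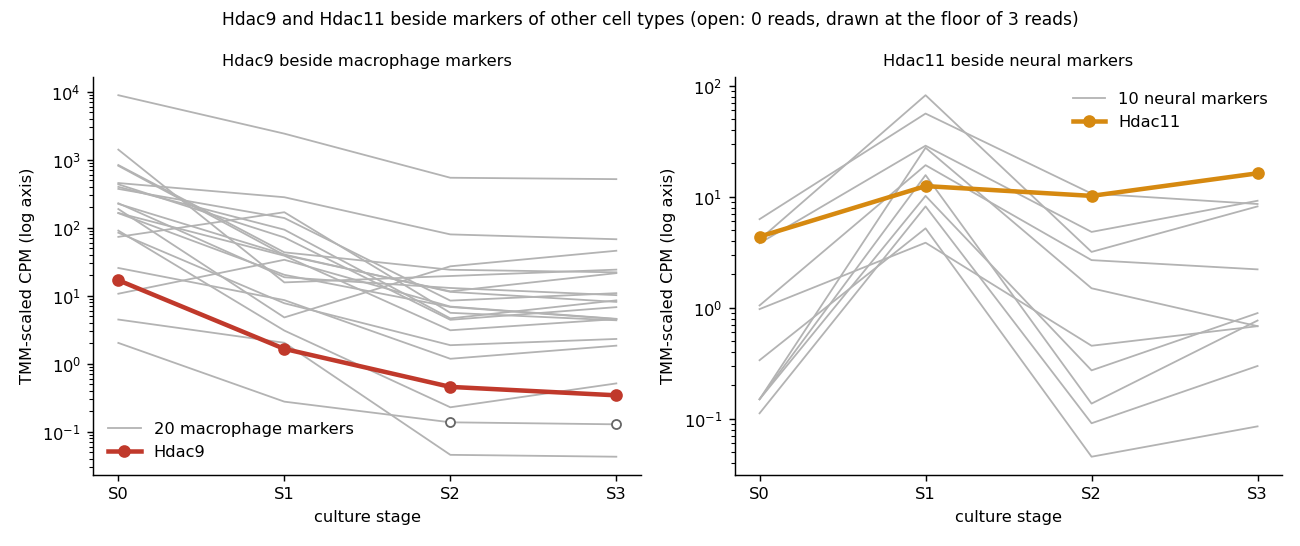
TMM-scaled CPM on a log vertical axis at stages S0 to S3 (horizontal axis), 1 library each: left, Hdac9 (red) with 20 macrophage markers (grey); right, Hdac11 (orange) with 10 measured neural markers (grey); open circles are values of 0 reads drawn at the floor of 3 reads. Levels of different genes are not scaled by length, so lines are to be read across stages: Hdac9 goes from 16.9 to 0.342 CPM along with most macrophage markers, and Hdac11 stays at 10.2 and 16.3 CPM in S2 and S3 where neural markers are lower than in S1.

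Hdac7, a class IIa gene known for its role in endothelial cells and in developing T cells, was low in S1 alone. Its reads numbered 1342, 423, 826 and 896 in S0 to S3, or 50.2, 14.6, 37.6 and 38.3 CPM. S0 was highest, and S2 and S3 lay between S0 and S1 with overlapping intervals. Hdac7 was 3.45-fold lower in S1 than in S0 (3.09 to 3.86) and 2.58-fold higher in S2 than in S1 (2.29 to 2.91). In S3 it was 1.31-fold below S0 (1.21 to 1.43), inside the 2-fold limit. Of the 8 endothelial markers measured, 3 were lower and 1 higher in S1 over S0, against 13.1% and 12.6% of all genes. The lower ones were Emcn (4.57-fold, 2.25 to 10.2), Vwf (11.1-fold, 7.88 to 16.1) and Cdh5 (12.3-fold, 5.68 to 31.5). Emcn and Cdh5 reached 1 CPM in S0 alone, so the limit for testing fixed their direction there. Of the same 8 markers, 0 were higher and 1 was lower in S2 over S1, against 6.71% and 10.1% of all genes. Of the 9 hepatocyte markers measured, 4 were called higher in S1 over S0, namely Cps1, Alb, Cyp3a11 and Apoa1. The 2 called lower, as Hdac7 was, were Hnf4a and Apob. The transcription factor gene Hnf4a stood at 107.7, 38.9, 234 and 163 CPM in S0 to S3. The apolipoprotein B gene Apob was 2.19-fold lower in S1 than in S0 (2.16 to 2.22) and 2.56-fold higher in S2 than in S1 (2.53 to 2.6). Of the lymphocyte markers, 1 of 9 reached 1 CPM, and their sum was at most 1.76 CPM at any stage. Cell cycle genes had all 9 listed members lower in S1 than in S0. In S3 over S2, where Hdac7 differed by 1.02-fold (0.924 to 1.12), 8 of them were higher, against 3.69% of all genes. The part of these markers and genes in the Hdac7 values was not tested.

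The genes with the pattern most like Hdac7 were Bend3, Pfkl, Arid1a, Adam19 and Zfp236, with root mean square differences of 0.027 to 0.047, and 291 genes lay within 0.25. Slc48a1, a heme transporter gene, overlaps Hdac7 in the RefSeq annotation, and whether the counting used the strand is not given in the sources used here. It had 3686, 3983, 7388 and 7627 reads in S0 to S3, more in S2 than in S1 as for Hdac7, but not fewer in S1 than in S0. The part of its reads in the Hdac7 values was not tested. Of the other genes annotated across a member, Gm18025 at Hdac9 had at most 1 read in a library, and the rest have no entry by that name.

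Hdac4 and Hdac5, class IIa genes studied as repressors of growth programs in heart muscle and cartilage, were close to level across the stages. Hdac4 stood at 57.7, 46.0, 48.4 and 49.4 CPM in S0 to S3. Hdac5 stood at 39.7, 36.4, 36.1 and 49.1 CPM. Hdac4 was highest in S0, and the other 3 stages overlapped in their intervals, while Hdac5 was highest in S3. The largest ratios were 1.25-fold lower for Hdac4 in S1 over S0 (1.16 to 1.35) and 1.36-fold higher for Hdac5 in S3 over S2 (1.24 to 1.49). Only 6.81% of all genes tested had a smaller span over the 4 stages than Hdac4 (1.25), and 13.9% a smaller one than Hdac5 (1.36). The sign of the S1 over S0 ratio of Hdac5 and of the S2 over S1 ratio of Hdac4 turned without TMM factors, so neither has a direction. A 10-base match to the MEF2 consensus, searched on both strands, was found in the Hdac5 window, as CTATTTTTAG at -20 from the start, and in none of the other 9 windows. Of all windows, 3.19% held a match, and a match is no evidence of binding.

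Hdac6, the class IIb tubulin deacetylase, had 1173, 2167, 1247 and 1464 reads, or 43.9, 74.6, 56.8 and 62.5 CPM in S0 to S3. S1 was highest and S0 lowest, and no intervals of the 4 stages overlapped except those of S2 and S3. Hdac6 was 1.7-fold higher in S1 than in S0 (1.58 to 1.83) and 1.31-fold lower in S2 than in S1 (1.23 to 1.41), both inside the 2-fold limit. With a limit of 1.5-fold it was called higher in S1. Hdac10, the polyamine deacetylase, had 244, 178, 185 and 150 reads, or 9.13, 6.13, 8.42 and 6.4 CPM, with S0 and S2 above S1 and S3 by point value. Its widest ratio was 1.49-fold lower in S1 over S0 (1.22 to 1.82), and it was not called in any comparison.

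Hdac11 was the only member called higher in S3 than in S0. Its reads numbered 117, 362, 224 and 382 in S0 to S3, or 4.38, 12.5, 10.2 and 16.3 CPM. S0 was low, and the later stages lay above it, with S3 at the top and the intervals of S1 and S2 overlapping. Hdac11 was 2.85-fold higher in S1 than in S0 (2.3 to 3.54) and 3.72-fold higher in S3 than in S0 (3.02 to 4.62). It was 1.22-fold lower in S2 than in S1 (1.03 to 1.45) and 1.6-fold higher in S3 than in S2 (1.35 to 1.89), neither called. Hdac11 is known to be abundant in brain. All 10 measured neural markers were called higher in S1 than in S0, with a median of 19.2-fold. All 10 were lower in S2 than in S1, with a median of 21.8-fold. Among all genes tested, 12.6% were higher in S1 over S0 and 10.1% lower in S2 over S1. Of the neural markers, Snap25, Syt1, Syp, Elavl3 and Gap43 reached 1 CPM in S1 alone. The limit for testing thus fixed their direction in both comparisons and their part in these counts and medians. In S3 over S0, 1 of the 10 was higher (Syt1) and 0 lower, against 9.2% and 10.5% of all genes. The part of the neural markers in the Hdac11 values was not tested. The genes with the pattern most like Hdac11 were Nat14, Syt4, Map3k13, Rnf122 and Cpm, at 0.064 to 0.09, and 144 genes lay within 0.25.

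**Figure D3:**
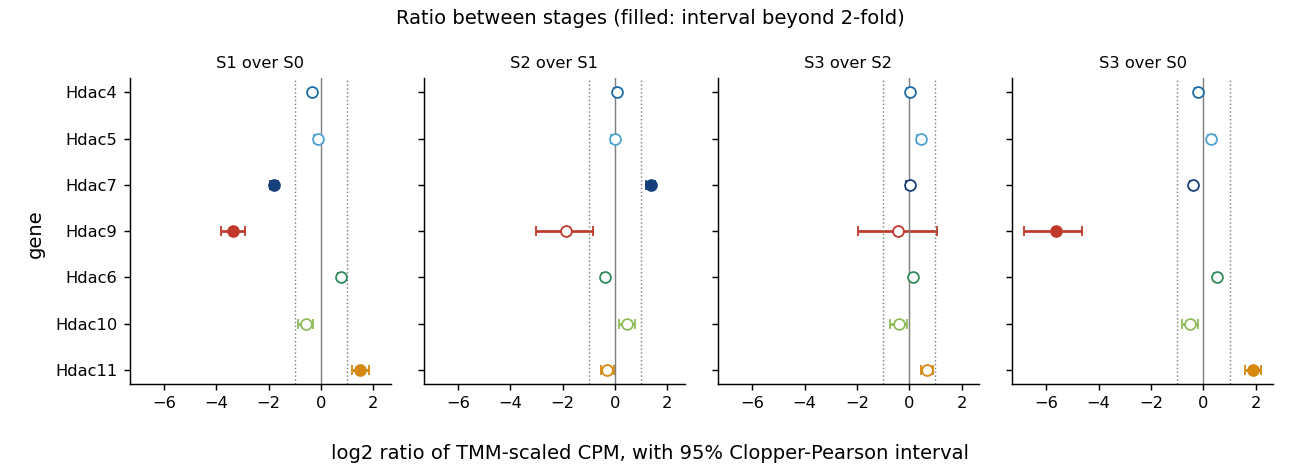
Log2 ratio of TMM-scaled CPM (horizontal axis) of each of the 7 genes (vertical axis) in 4 comparisons of stages, with 95% Clopper-Pearson intervals; dotted lines mark 2-fold and filled points are genes called. Hdac7 and Hdac9 lie left of the line and Hdac11 right of it in S1 over S0, and no gene is called in S3 over S2.

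Levels of different genes were compared per length, as deposited RPKM, within each stage. In S0, Hdac7 led with 4.17 RPKM, then Hdac6 (3.06), Hdac5 (2.58), Hdac4 (2.5), Hdac9 (1.34), Hdac10 (1.11) and Hdac11 (0.579). The Poisson intervals of Hdac5 and Hdac4, and of Hdac9 and Hdac10, overlapped, and the other neighbours were apart. In S1 the order was Hdac6 (5.85), Hdac5 (2.66), Hdac4 (2.24), Hdac11 (1.85), Hdac7 (1.36), Hdac10 (0.836) and Hdac9 (0.148), with all neighbours apart. Hdac6 thus led in S1, and it also led in S2 (3.93) and S3 (4.41). Hdac9 was last in S1, S2 (0.0359) and S3 (0.0274). In S2 the neighbours Hdac5 and Hdac4 overlapped, as did Hdac11 and Hdac10. In S3, Hdac5 (3.23) and Hdac7 (3.21) overlapped, as did Hdac11 (2.18) and Hdac4 (2.17).

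The sum over the 7 genes was 15.3, 14.9, 13.8 and 16.0 RPKM in S0 to S3, values without TMM factors, while the make-up differed. Class IIa genes held 69.0%, 42.9%, 54.6% and 53.9% of the sum in the same order. Class IIb genes held 27.2%, 44.7%, 35.8% and 32.4%. Hdac11 held 3.78%, 12.4%, 9.69% and 13.6%. Hdac9 alone went from 8.74% in S0 to 0.171% in S3, and Hdac7 from 27.2% in S0 to 9.1% in S1 and back to 22.4% in S2. The 4 class I genes, Hdac1, Hdac2, Hdac3 and Hdac8, summed to 24.2, 34.1, 23.4 and 28.0 RPKM, and none of them was called in any of the 4 comparisons. Their widest ratios were 1.69-fold lower for Hdac1 in S2 over S1 (1.55 to 1.86) and 1.57-fold higher for Hdac3 in S1 over S0 (1.48 to 1.67). The 0 of 4 called stands beside 12.6% higher and 13.1% lower among all genes in S1 over S0, the largest shares of any comparison.

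**Figure D4:**
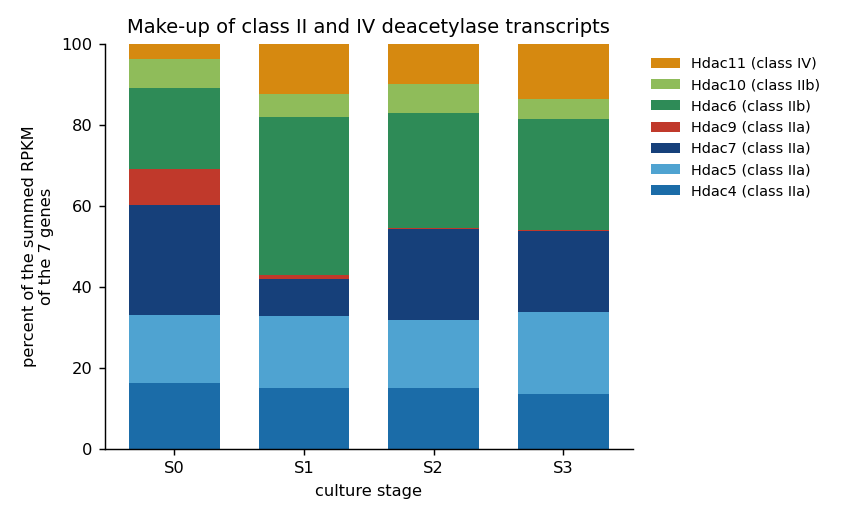
Share of each gene in the summed RPKM of the 7 genes (vertical axis, percent) at stages S0 to S3 (horizontal axis), 1 library each, stacked with class IIa in blue and red, class IIb in green and class IV in orange. Class IIa takes 69.0% in S0 and 42.9% in S1, where Hdac6 takes 39.1%.

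Of the DNA-binding partners of class IIa enzymes, the 4 MEF2 factors, Mef2a and Mef2c were lower in S1 than in S0. Mef2d was not called, and Mef2b, with 1 read in all, was not measured. Mef2a stood at 364, 102, 109 and 117 CPM and Mef2c at 62.4, 12.3, 1.73 and 1.79 CPM in S0 to S3. Mef2a was 3.58-fold lower in S1 than in S0 (3.43 to 3.73), and Mef2c 5.07-fold lower (4.52 to 5.7) and a further 7.11-fold lower in S2 than in S1 (5.08 to 10.2). Mef2d, at 57.2, 38.6, 39.3 and 45.9 CPM, had a ratio of 1.48-fold lower in S1 over S0 (1.37 to 1.6). Mef2c is also expressed in macrophages, whose markers are given above, and their part was not tested. Of the 6 genes of the NCoR/SMRT complex, 0 were called in any comparison, and Ncor1 stood at 236, 162, 253 and 244 CPM. Among all genes, 12.6% were higher and 13.1% lower in S1 over S0, with smaller shares in the other comparisons.

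Of 18 listed kinases that act on class IIa enzymes, all measured, 3 were higher and 2 lower in S1 over S0, with a median log2 ratio of 0.06. These counts are close to the 12.6% higher and 13.1% lower among all genes tested. The higher ones were the calcium and calmodulin kinases Camk4 (5.24-fold, 4.01 to 6.93) and Camk2b (4.3-fold, 3.43 to 5.43) and the AMPK subunit Prkaa2 (3.25-fold, 2.81 to 3.77). The lower ones were Camk1 (2.7-fold, 2.48 to 2.94) and Camk2a (5.19-fold, 2.5 to 12.1), which reached 1 CPM in S0 alone and could only be lower elsewhere. Camk2b was lower again in S2 over S1 (3.5-fold, 2.79 to 4.41), the single call there, against 6.71% higher and 10.1% lower among all genes. In S3 over S2, 0 were called, against 3.69% and 1.14%. At 3.52, 15.1, 4.33 and 3.93 CPM Camk2b was high in S1 alone, as were the neural markers given above, whose part was not tested. In S3 over S0, Prkaa2 (4.35-fold, 3.77 to 5.04), Camk4 (4.63-fold, 3.52 to 6.17) and the protein kinase D gene Prkd1 (2.38-fold, 2.09 to 2.72) were higher and Camk1d lower (3.39-fold, 2.98 to 3.86). These 3 higher and 1 lower of 18 stand beside 9.2% and 10.5% of all genes. Of 7 genes of 14-3-3 proteins, Ywhah was lower in S1 over S0 (3.09-fold, 2.95 to 3.24) and in S3 over S0 (2.29-fold, 2.19 to 2.4), and Sfn in S2 over S1 (4.62-fold, 2.79 to 8.09). Each was the single call among the 7, against 13.1%, 10.5% and 10.1% lower among all genes in those comparisons.

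Of 9 listed genes known as targets of MEF2 and class IIa enzymes in muscle, T cells or endothelium, 4 were higher and 0 lower in S1 over S0 (median log2 ratio 0.34), and 0 were higher and 5 lower in S2 over S1 (median -1.39). Among all genes tested, 12.6% were higher and 13.1% lower in S1 over S0, and 6.71% and 10.1% in S2 over S1. Slc2a4, the insulin-responsive glucose transporter gene, had 2 reads in S0, 203 in S1 and 8 in S2, which is 93.4-fold higher in S1 than in S0 (25.5 to 776) and 19.2-fold lower in S2 than in S1 (9.56 to 45.1). The nuclear receptor gene Nr4a3 had 2, 82 and 7 reads in the same stages (37.7-fold higher, 10.1 to 317, then 8.86-fold lower, 4.11 to 22.7). Slc2a4 and Nr4a3 reached 1 CPM in S1 alone, so the limit for testing fixed their direction in both comparisons and their part in these counts and medians. Nr4a2 (3.65-fold, 2.51 to 5.46) and the protease gene Mmp10 (9.38-fold, 7.3 to 12.2) were also higher in S1. Nr4a1, which developing T cells express under control of Hdac7 and MEF2, was 5.23-fold lower in S2 than in S1 (3.33 to 8.59) and 3.03-fold lower in S3 than in S0 (2.11 to 4.42). Klf2 was lower in S2 over S1 (2.53-fold, 2.0 to 3.22) and S3 over S0 (8.88-fold, 6.38 to 12.7), and Nr4a2 in S2 over S1 (3.5-fold, 2.35 to 5.39). Klf4 was 3.45-fold lower (3.0 to 3.97) and Mmp10 6.34-fold higher (4.89 to 8.33) in S3 over S0.

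Of the FOXO and gluconeogenesis genes, Foxo1 was 2.37-fold higher in S1 than in S0 (2.05 to 2.74), and Foxo3 was not called. The glucose 6-phosphatase gene G6pc had at most 6 reads in any library and the gene of phosphoenolpyruvate carboxykinase, Pck1, at most 2, so neither was tested.

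Around Hdac6, 14 genes of tubulin acetylation and protein aggregate handling were all measured, and 1 was higher in S1 than in S0, 2 in S2 than in S1, 0 in S3 than in S2 and 1 in S3 than in S0, with 0 lower in each. The shares called higher among all genes were 12.6%, 6.71%, 3.69% and 9.2% in the same order. Those called lower were 13.1%, 10.1%, 1.14% and 10.5%. The autophagy gene Map1lc3b was 2.35-fold higher in S1 than in S0 (2.26 to 2.44). Vcp, a segregase that works with Hdac6 on aggregates (2.21-fold, 2.13 to 2.29), and the autophagy receptor gene Sqstm1 (2.08-fold, 2.04 to 2.11) were higher in S2 than in S1. Neither call held without TMM factors, where Vcp was 1.94-fold higher (1.88 to 2.02) and Sqstm1 1.83-fold (1.8 to 1.86), nor did that of Sqstm1 with DESeq2 size factors (2.03-fold, 1.99 to 2.06). Atat1, the acetyltransferase that opposes Hdac6 on alpha-tubulin, was 2.42-fold higher in S3 than in S0 (2.01 to 2.91), and its ratio in S1 over S0 was 1.96-fold (1.63 to 2.36). The Atat1 call in S3 over S0 did not hold with DESeq2 size factors (2.34-fold, 1.95 to 2.82) or with TMM factors of those libraries alone (2.35-fold, 1.96 to 2.83). Sirt2, the other tubulin deacetylase, was not called in any comparison, with ratios of 1.02-fold lower in S1 over S0 (0.956 to 1.09) and 1.17-fold lower in S3 over S0 (1.08 to 1.26).

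Of the 12 polyamine genes around Hdac10, all measured, 3 were higher and 1 lower in S1 over S0, against 12.6% and 13.1% of all genes. Odc1, the rate-limiting enzyme of polyamine synthesis, was 2.29-fold higher (2.24 to 2.34), with the antizyme inhibitor gene Azin2 (2.48-fold, 2.24 to 2.74) and the antizyme gene Oaz2 (4.13-fold, 3.8 to 4.49). The spermidine synthase gene Srm was 2.53-fold lower (2.29 to 2.79). In S2 over S1, Odc1 (2.12-fold, 2.07 to 2.17), the polyamine oxidase gene Paox (2.55-fold, 2.03 to 3.22) and the spermine oxidase gene Smox (2.39-fold, 2.13 to 2.68) were lower, 3 of 12 against 10.1% of all genes. In S3 over S0, Oaz2 was 2.94-fold higher (2.69 to 3.22) and the acetyltransferase gene Sat1 2.46-fold lower (2.33 to 2.59). This is 1 higher and 1 lower of 12, against 9.2% and 10.5% of all genes.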

How the data were processed

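Per the labels, Trizol RNA went into a stranded total RNA kit. The submitters' processing notes name mm9 as the build and bcl2fastq as a tool. The aligner, counter, annotation and strand setting were not given in the sources used here. The authors deposited read counts per gene and RPKM per gene, as the file headers name them, without coordinates. Counts were scaled to CPM with TMM factors over all 4 libraries (0.968, 1.089, 0.957 and 0.991; edgeR 4.0.16, R 4.3.3), and the 15222 genes that reached 1 CPM in any library were tested. Clopper-Pearson and Poisson intervals used scipy 1.17.1. A value of 0 reads was set to a floor of 3 reads (0.103 to 0.137 CPM) in list medians. Libraries without molecular identifiers count reads, not independent molecules. No p-value was computed with 1 library per stage. The method was run on simulated counts with counting error alone, which hold no spread between cultures or libraries. RPKM was used between genes of 1 library and for sums and shares per stage, and for ratios between libraries only as an alternative. Pattern profiles used log2(CPM + 0.5). All members were named, at most 6 called genes per pathway list and comparison, and the 5 genes most alike each called member. Of the 2 entries named Itgam the one with fewer reads was left out of the macrophage list. Members and lists were chosen with earlier results of these data known. Alternatives were other scalings (DESeq2 1.42.0 size factors among them), filters, limits, intervals and RPKM ratios.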

Additional observations from a re-analysis of the deposited data

How the results depend on the processing

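Over 8 counts of members called (4 comparisons, each direction) and 9 alternatives, 68 of 72 values were equal to the main count or within 1.5 times of it. Neither change of filter could alter a member's call, since each member reached 5 CPM in at least 1 library. TMM factors of each pair alone gave the main log2 ratios again in S1 over S0 and S2 over S1. Those values therefore say little about stability. In S1 over S0, 2 members were higher with an interval beyond 1.5-fold, Hdac6 beside Hdac11. In S2 over S1, 1 member was lower, Hdac9, without TMM factors, with an interval beyond 1.5-fold and by point ratio. Of 112 log2 ratios of single members, 94 stayed within the main interval, 18 left it and 0 of those called changed sign; 4 of those not called did, for Hdac4 and Hdac5 as named above. The largest shift was 2.13, with RPKM and a pseudocount of 0.1, for Hdac9 in S3 over S0. For the 45 called ratios of pathway list genes, 3 other scalings were chosen after seeing the data. Of these 135 values 0 changed sign. A called ratio lies beyond 2-fold and these scalings shifted a member's log2 ratio by at most 0.19, so no called ratio could change sign. Of the same values, 5 lost the call (Vcp, Sqstm1 and Atat1, given above). Beside them, 3 ratios of list genes not called before were called without TMM factors: Camk1d (2.45-fold, 2.18 to 2.76) and Ppargc1a (2.99-fold, 2.19 to 4.14) lower in S2 over S1, and Nr4a3 higher in S3 over S0 (8.76-fold, 2.04 to 78.9). Without TMM factors the median of all genes was 0.15 in S1 over S0 and -0.18 in S2 over S1 (log2).

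Counts over all genes moved by over 1.5 times as follows, main count first. With an interval beyond 1.5-fold, higher and lower were 1915 and 2997, and 1989 and 3281, in S1 over S0; 1021 and 2248, and 1542 and 2454, in S2 over S1; 562 and 1110, and 173 and 512, in S3 over S2; and 1400 and 2494 for higher in S3 over S0. By point ratio they were 1684 higher and 2405 lower in S2 over S1, 1240 and 686 in S3 over S2, and 2246 higher in S3 over S0. With at least 5 CPM, 1195 were higher in S1 over S0 and 975 lower in S2 over S1, and with RPKM 270 were lower in S3 over S2. No paired analysis was possible because each stage has 1 library. At 8 to 48 reads, depth limits what Hdac9 can show between S1, S2 and S3.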
